A study of Mus musculus with 11 samples.

Results

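The transcripts described here are 35 genes of fatty acid uptake and oxidation, named by symbol and matched by Ensembl identifier, of 55414 identifiers in the whole data set. All 35 matched a single identifier each, and all 35 were among the 14556 genes that passed the count filter and were tested. They were chosen by function and divided into 7 steps: uptake and activation (5 genes), release of stored lipid and thioesterases (4), the carnitine shuttle and malonyl-CoA (6), mitochondrial beta-oxidation (12), the electron transfer flavoprotein (3), peroxisomal beta-oxidation (3), and fuel switch and uncoupling (2).

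RNA was taken from the apex of hearts of C57BL/6 mice, the strain given for all samples. Untreated hearts gave 4 libraries (NR). The irradiated groups had the apex exposed to a single dose of 40 Gy of protons at a standard dose rate (S-PRT, 4 libraries) or at the ultra-high dose rate called FLASH (F-PRT, 3 libraries, numbered 2 to 4), and were sampled after 2 weeks. The labels name no transgene, and the age and sex of the mice are not given in the sources used here. No label ties a library to an animal of its own, so a p-value here weighs a difference against the spread among libraries, and that spread may be technical.

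The heart draws much of its energy from long-chain fatty acids. Lipoprotein lipase frees them from circulating triglyceride, CD36 and related transporters carry them into the cardiomyocyte, and acyl-CoA synthetases trap them as acyl-CoA. The carnitine shuttle then moves the acyl group into the mitochondrion, where its entry enzyme CPT1 is held back by malonyl-CoA, and beta-oxidation shortens the chain in repeated rounds that pass electrons to the respiratory chain.

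Carnitine palmitoyltransferase 1a was the member with the lowest adjusted p after both modes of irradiation, while the enzymes of the beta-oxidation spiral differed by small amounts. Cpt1a fell to 0.602-fold of the NR level after S-PRT and to 0.477-fold after F-PRT. After F-PRT the acyl-CoA synthetase Acsl1 and the transporter Cd36 fell as well. After S-PRT 32 of 35 members had a lower fitted level than in NR, against 48.7% of all genes tested. The median log2 fold change of the members was -0.17, against 0.01 for all genes tested. By edgeR no member was called higher after either mode in the fit of all libraries with group as its only term, and none was called different between the modes. With 1 surrogate variable added, edgeR called Etfb and Acaa1a higher after F-PRT (0.44 and 0.34, adjusted p = 0.0351 and 0.0471).

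Promoters are shown first for the members whose values the results turn on. RefSeq gene starts on GRCm38.p6 gave 34 promoter windows for 30 of the 35 members, and Lpl, Cpt1b, Acaa2, Decr1 and Hsd17b4 were not matched. Cpt1a and Cd36 are shown because they were called, Pdk4 and Ucp3 because their levels went together over the 11 libraries, and Hadhb because its start lies 273 bases from that of Hadha on the opposite strand. Each sequence is the 250 bases before the start, 5′ to 3′ on the strand of the gene, and capitals mark a DR1 match. The windows are chr19:3323051-3323300 on the plus strand for Cpt1a, chr5:17835897-17836146 on the minus strand for Cd36, chr6:5496279-5496528 on the minus strand for Pdk4, chr7:100472741-100472990 on the plus strand for Ucp3 and chr5:30155003-30155252 on the plus strand for Hadhb.
Cpt1a: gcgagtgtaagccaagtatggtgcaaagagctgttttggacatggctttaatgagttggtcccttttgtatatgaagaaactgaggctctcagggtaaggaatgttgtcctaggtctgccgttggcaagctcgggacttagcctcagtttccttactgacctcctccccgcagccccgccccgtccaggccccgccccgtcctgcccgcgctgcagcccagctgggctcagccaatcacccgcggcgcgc
Cd36: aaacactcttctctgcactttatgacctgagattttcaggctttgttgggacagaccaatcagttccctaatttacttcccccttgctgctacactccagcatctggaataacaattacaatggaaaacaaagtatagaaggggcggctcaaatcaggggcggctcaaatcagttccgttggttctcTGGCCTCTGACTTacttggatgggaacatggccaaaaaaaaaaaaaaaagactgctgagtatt
Pdk4: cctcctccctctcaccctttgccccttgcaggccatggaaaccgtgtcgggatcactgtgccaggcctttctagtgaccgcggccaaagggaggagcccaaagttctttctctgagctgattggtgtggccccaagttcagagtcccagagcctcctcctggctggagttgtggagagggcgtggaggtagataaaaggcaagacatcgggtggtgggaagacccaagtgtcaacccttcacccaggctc
Ucp3: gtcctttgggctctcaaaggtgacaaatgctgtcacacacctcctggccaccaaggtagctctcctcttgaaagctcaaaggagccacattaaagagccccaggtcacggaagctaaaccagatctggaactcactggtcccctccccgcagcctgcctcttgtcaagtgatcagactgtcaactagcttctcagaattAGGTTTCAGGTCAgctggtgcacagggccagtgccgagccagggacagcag
Hadhb: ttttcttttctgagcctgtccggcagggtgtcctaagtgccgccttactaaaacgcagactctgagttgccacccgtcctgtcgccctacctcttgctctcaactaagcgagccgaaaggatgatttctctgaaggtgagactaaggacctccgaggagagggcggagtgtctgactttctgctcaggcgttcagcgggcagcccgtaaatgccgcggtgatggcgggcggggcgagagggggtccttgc

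The DR1 element, a direct repeat bound by the lipid-sensing nuclear receptors PPAR with RXR, was searched as AGGTCA, any base (N) and AGGTCA again, on both strands with up to 2 mismatches, from 250 bases before to 50 after each start. It was found in 5 of 34 member windows (14.7%), against 1268 of 32851 windows of all genes (3.86%). The sites were AAGTCAGAGGCCA in Cd36 (opposite strand, 63 bases before the start), AGGTTTCAGGTCA in Ucp3 (51 before), AGGTCACGGGTCC in Echs1 (83 before), AGGGCAAAGGTAA in Etfa (opposite strand, 77 before) and AGGTGAAAGGTCG in Slc25a20 (6 bases from the start, on its downstream side). The shorter element TNAAGGTCA, bound by the estrogen-related receptors, was in 0 of 34 member windows and in 1.28% of all windows, on both strands with no mismatch. Cpt1a, Pdk4 and the shared region of Hadha and Hadhb held no match to either motif in these windows. The end of the Cd36 window did not lie in an annotated Cd36 transcript of GENCODE M21, so that start may not be the one used in heart. The share of matches is a description, and no binding was measured.

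Library depth was 20758170 to 40136578 expected counts, of which mitochondrially encoded transcripts took 24.2% to 43.8%. The 35 members together took 1.55% to 2.66% of all counts, and 2.65% to 3.5% of the counts that were not mitochondrially encoded. Libraries numbered 1 and 2 stood apart from those numbered 3 and 4 in NR and S-PRT, whether or not they were irradiated: deviations from the group means correlated at 0.167 to 0.443 between an NR and an S-PRT library of the same set, and at -0.447 to -0.198 across the sets. The correlation of a gene's level, relative to its mean over the 11 libraries, with its length also differed between libraries. This Spearman correlation over all tested genes was 0.34 to 0.42 in the NR libraries, -0.26 to 0.27 in S-PRT and -0.56 to -0.16 in F-PRT.

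Cardiac muscle markers were abundant in all libraries, with the summed level of 10 such genes at 40356 to 56861 TPM (transcript abundance scaled by length) in NR, 40623 to 46766 in S-PRT and 45302 to 80479 in F-PRT. Of 9 adipocyte markers only Cidea, which heart muscle also expresses, passed the filter, and the fat cell genes Adipoq and Plin1 were at or below 0.12 TPM in every library. Ucp1 was at 0. The 10 endothelial markers summed to 140 to 291 TPM in NR, 111 to 205 in S-PRT and 117 to 325 in F-PRT. The 8 fibroblast markers summed to 143 to 345 TPM in NR, 152 to 240 in S-PRT and 88.5 to 264 in F-PRT. Macrophage and leukocyte markers summed to 96.8 to 215 TPM in NR, 145 to 342 in S-PRT and 119 to 323 in F-PRT. In whole tissue, fewer cells of a type and less RNA per cell cannot be told apart.

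In untreated hearts the members covered a wide range of levels on the TPM scale. The fatty acid binding protein Fabp3 was highest at 3768 ± 626 TPM (SD, n = 4), followed by Lpl at 1045 ± 130, the flavoprotein subunit Etfb at 914 ± 127 and the trifunctional protein subunit Hadhb at 835 ± 147. Lpl, Etfb and Hadhb stood in that order in each NR library, although they overlapped within their SDs. The lowest were the peroxisomal enzyme Ehhadh at 4.65 ± 1.56 TPM, Cpt1a at 10.1 ± 1.98 and the thioesterase Acot1 at 12.2 ± 2.34. The muscle form of the entry enzyme, Cpt1b, stood at 159 ± 30.6 TPM, far above Cpt1a. Part of the Cpt1b reads was shared with other genes in all 11 libraries. Expected counts were also fractional for Acadvl in 10 libraries, Etfa and Acaa1a in 9, Etfb and Eci2 in 8 and Etfdh in 7.

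The following values are CPM, counts scaled for library size by TMM, which compare libraries but not genes. The map of all members by library shows each gene against its own NR mean. On that scale the median member lay at 0.05, 0.01, 0.01 and -0.05 log2 units over the 4 NR libraries and at -0.06, -0.02, -0.39 and -0.34 in S-PRT replicates 1 to 4. It lay at -0.33, -0.08 and 0.07 in F-PRT replicates 2 to 4. All 35 members were below their NR mean in S-PRT replicates 3 and 4, and 30 in F-PRT replicate 2, whereas only 13 were in F-PRT replicate 4. The same count was not made over all genes, so these numbers are a description.

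**Figure D1:**
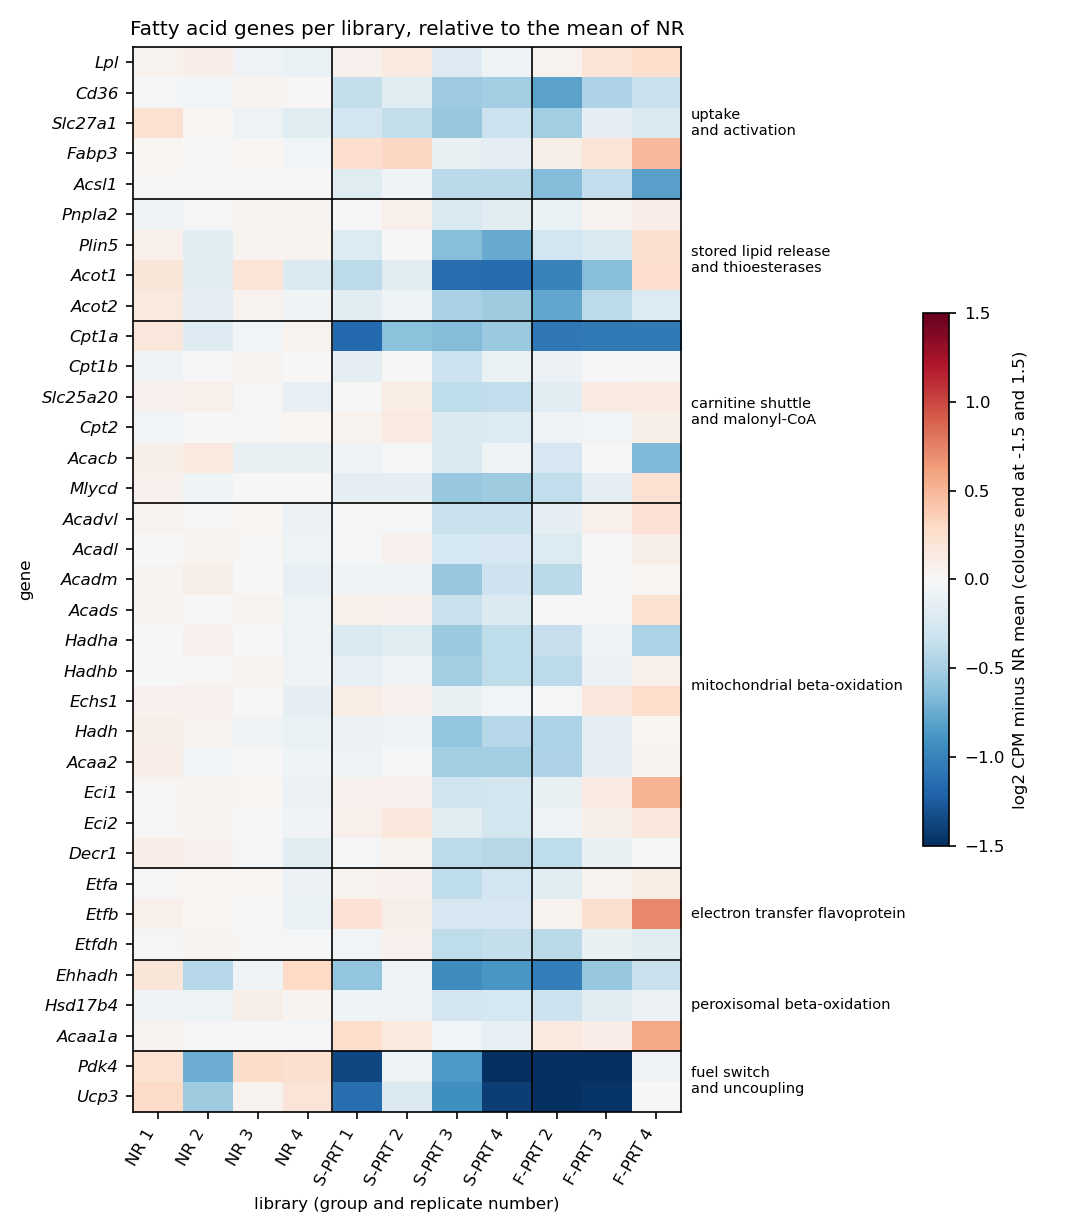
Each row is a member gene, grouped by step, and each column a library. Colour gives log2 CPM minus the mean of the 4 NR libraries, from -1.5 (blue) to 1.5 (red). S-PRT replicates 3 and 4 are blue in nearly every row, S-PRT replicates 1 and 2 are pale apart from Cpt1a and a few others, and Cpt1a is blue in all 7 irradiated libraries.

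In the comparison of S-PRT with NR, which asks what differed after the standard dose rate, 1 of 35 members (2.86%) was called lower at an edgeR adjusted p under 0.05, against 0.419% of all genes tested. None was called higher, against 0.872% of all genes. At an unadjusted p under 0.05 there were 11 members, of 2666 genes, and DESeq2 called 3 members, Cpt1a, Cd36 and Slc27a1. In 7 members every S-PRT library lay below every NR library (20%, against 6.71% of all genes), namely Cd36, Slc27a1, Acsl1, Cpt1a, Mlycd, Hadha and Hadhb. In 0 members did every S-PRT library lie above, against 7.34% of all genes.

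Same-numbered NR and S-PRT libraries deviated together, and so did differently numbered ones within replicates 1 and 2 or within 3 and 4. The replicate number was also used as a block, although no label gives a pairing. With the block 7 of 35 members were lower (20%), against 3.33% of all genes, and 0 were higher, against 6.42%. The 7 were Cd36, Slc27a1, Acot1, Cpt1a, Mlycd, Hadha and Hadh.

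In the comparison of F-PRT with NR, which asks the same of the FLASH dose rate, 3 of 35 members were called lower (8.57%), against 8.67% of all genes. They were Cpt1a, Acsl1 and Cd36. None was called higher, against 10.8% of all genes. The share of members called lower was therefore near that of all genes. Leaving out F-PRT replicate 3 gave 5 members called lower, with 3784 genes called in either direction. Leaving out replicate 4 gave 6 members lower, with 702 genes lower and 680 higher. Shares of all genes tested were not worked out for these fits, so their counts of members are a description. Every F-PRT library lay below every NR library in 7 members (20%, against 13.9% of all genes) and above in 2, Fabp3 and Acaa1a (5.71%, against 17.5%). The median member had a log2 fold change of -0.11, against 0.03 for all genes. Of the members 23 of 35 were negative, against 47.2% of all genes.

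**Figure D2:**
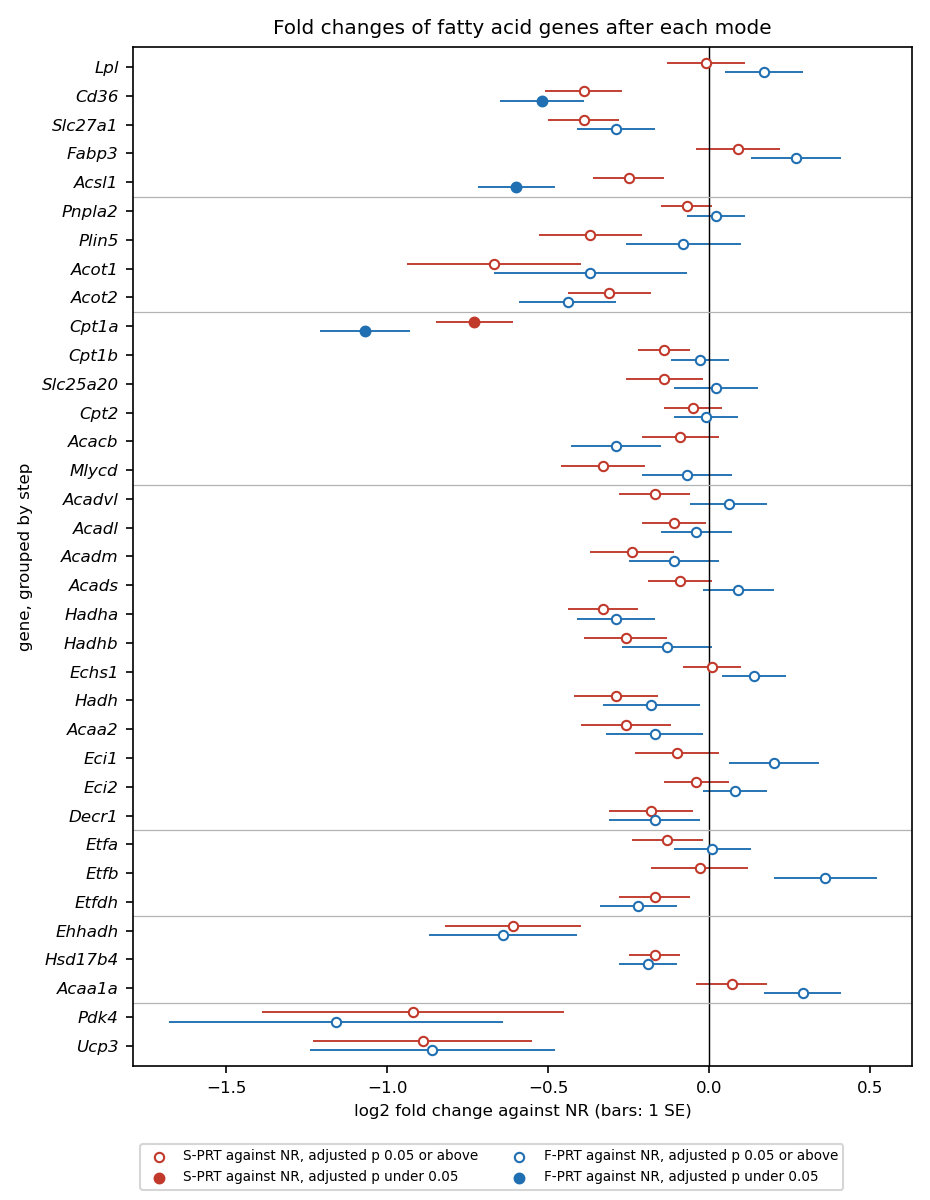
Log2 fold change against NR for each member, by step, with bars of 1 SE; red is S-PRT, blue is F-PRT, and filled points have an edgeR adjusted p under 0.05. Cpt1a is filled in both modes at -0.73 and -1.07, Acsl1 and Cd36 are filled for F-PRT alone, and the beta-oxidation genes from Acadvl to Decr1 sit between -0.33 and 0.20.

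The comparison of F-PRT with S-PRT asks whether the dose rates differed. By edgeR 0% of the 14556 genes and 0 of 35 members were called, although 2315 genes and 3 members (Acsl1, Cpt1a and Etfb) had an unadjusted p under 0.05. DESeq2 called 167 genes and limma on log2 TPM 2 or 6, none of them members. Of the members 26 of 35 had a positive log2 fold change and the median was 0.11, or 0.01 after the trend with gene length was removed. Over all genes 49.6% were negative. All 12 mitochondrial beta-oxidation genes were positive, at 0.02 to 0.30, but none passed the test and with the length trend removed their median was 0.03. Both comparisons with NR use the same 4 untreated libraries.

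Uptake of fatty acids begins at the vessel wall and ends with acyl-CoA. Cd36 (ENSMUSG00000002944.16), the scavenger receptor that takes up long-chain fatty acids and is made by both muscle and endothelial cells, had 1120, 1102, 1161 and 1141 CPM in NR replicates 1 to 4. S-PRT replicates 1 to 4 had 882, 999, 776 and 796 CPM. In F-PRT replicates 2 to 4 the values were 648, 822 and 899 CPM. All 7 irradiated libraries were below all 4 NR libraries, which were tightly grouped. Cd36 fell after F-PRT (log2 fold change -0.52 ± 0.13 SE, edgeR adjusted p = 0.0176), a fall of 30.2%. After S-PRT the change was -0.39 ± 0.12 (adjusted p = 0.114), and with the replicate block it was lower (-0.40 ± 0.08, adjusted p = 0.0192). The F-PRT call was lost with the replicate block (-0.55 ± 0.17, adjusted p = 0.141) and without F-PRT replicate 2 (-0.39, adjusted p = 0.0579).

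Acsl1 (ENSMUSG00000018796.14), the main long-chain acyl-CoA synthetase of heart, had 709, 697, 696 and 708 CPM in NR (replicates 1 to 4 in order) against 619, 675, 532 and 529 CPM in S-PRT. The 3 F-PRT libraries had 446, 544 and 400 CPM. The NR libraries were nearly equal and all irradiated libraries lay below them. Acsl1 fell after F-PRT (-0.60 ± 0.12, adjusted p = 0.0105), and the S-PRT value was -0.25 ± 0.11 (adjusted p = 0.248). With the replicate block neither was called (-0.62 ± 0.17 after F-PRT and -0.27 ± 0.08 after S-PRT, adjusted p = 0.123 and 0.0637). Between the modes the difference was -0.35, with a 95% interval of -0.61 to -0.08 and an adjusted p of 0.227, so a lower level after F-PRT than S-PRT did not pass the test over all genes. Acsl1 had fractional expected counts in 6 of 11 libraries, so some of its reads were shared with other genes.

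Slc27a1 (ENSMUSG00000031808.8) encodes the fatty acid transport protein FATP1. Its level was 150, 130, 121 and 113 CPM in NR (replicates 1 to 4 in order) against 105, 100, 86.1 and 102 in S-PRT. After F-PRT, replicates 2 to 4 had 89, 116 and 110 CPM, which overlapped with NR. All S-PRT libraries were below the lowest NR library (log2 fold change -0.39 ± 0.11, adjusted p = 0.103), and the gene was lower with the replicate block (adjusted p = 0.0161).

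The other members of this step did not pass the test. Lpl, the lipoprotein lipase, had log2 fold changes of -0.01 ± 0.12 after S-PRT and 0.17 ± 0.12 after F-PRT. Fabp3, which carries fatty acids through the cytosol, had 0.09 ± 0.13 and 0.27 ± 0.14 (adjusted p = 0.776 and 0.196), and with the length trend removed -0.14 and -0.13. Part of the Fabp3 reads was shared with other genes in all 11 libraries.

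**Figure D3:**
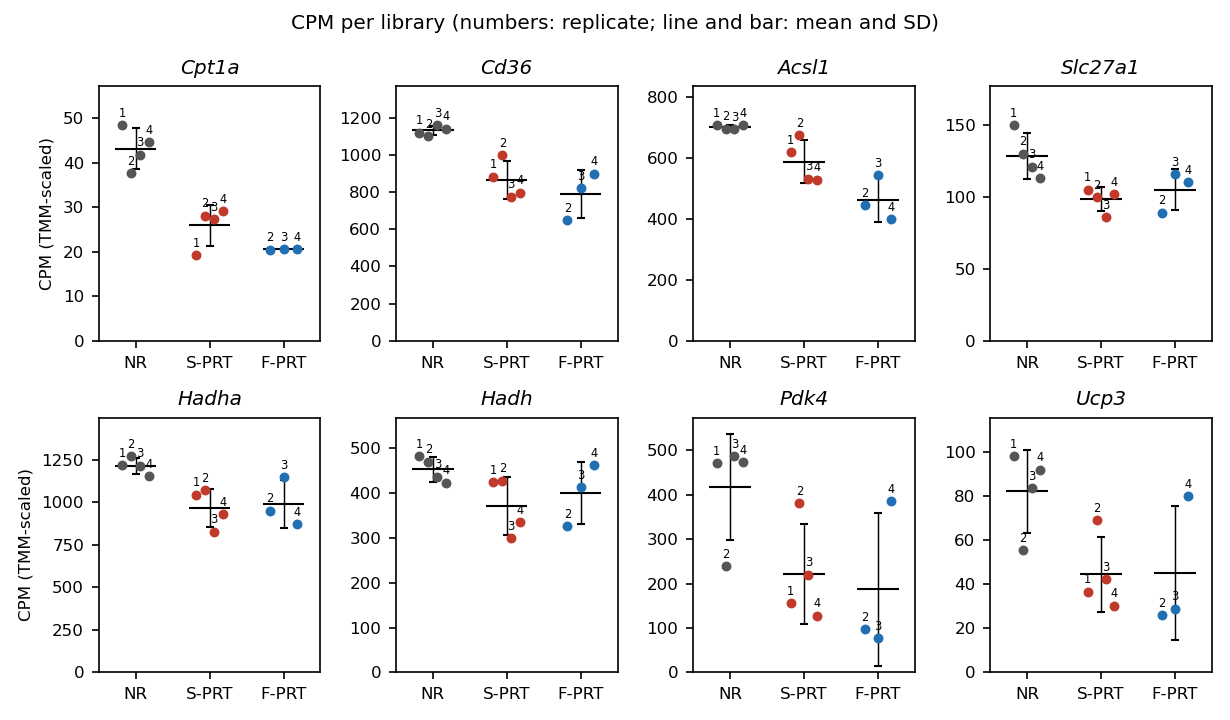
CPM in each library for 8 members, on axes from 0, with replicate numbers above the points and the mean and SD drawn in black. All irradiated libraries lie below all NR libraries for Cpt1a, Cd36, Acsl1 and Hadha, the groups of Pdk4 and Ucp3 overlap, and NR replicate 2 is the lowest NR library for both of those.

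Stored lipid is released by lipases at the droplet surface, and thioesterases turn acyl-CoA back to free fatty acid. The 4 members of this step had log2 fold changes of -0.67 to -0.07 after S-PRT (median -0.34) and -0.44 to 0.02 after F-PRT (median -0.22), with 0 called by edgeR. At an unadjusted p under 0.05 there were 3 and 1, and DESeq2 called 0 and 1. Acot1 (ENSMUSG00000072949.7), a cytosolic thioesterase, had 23.6, 18.5, 23.9 and 17.9 CPM in NR (replicates 1 to 4 in order) against 15.9, 18.7, 9.38 and 9.36 in S-PRT. In F-PRT replicates 2 to 4 the values were 10.4, 13.3 and 24.7 CPM. The groups overlapped: S-PRT replicate 2 and F-PRT replicate 4 were within or above the NR range, while S-PRT replicates 3 and 4 were well under it. The S-PRT change was -0.67 ± 0.27 (adjusted p = 0.22), or -0.72 ± 0.18 with the block (adjusted p = 0.0366). Acot1 and its mitochondrial relative Acot2 are near-identical copies whose reads were shared in most libraries, so their separate values are uncertain.

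Acot2 had -0.31 ± 0.13 after S-PRT and -0.44 ± 0.15 after F-PRT (adjusted p = 0.0512), with every F-PRT library below every NR library. Plin5, the droplet protein that tethers lipid to mitochondria, had 91.2, 105, 67.8 and 62.4 CPM in S-PRT replicates 1 to 4 against 94 to 111 in NR. Only S-PRT replicates 3 and 4 were clearly below NR. Pnpla2, the adipose triglyceride lipase, had -0.07 ± 0.08 and 0.02 ± 0.09, the values nearest 0 in this step.

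The carnitine shuttle held the member with the lowest adjusted p. Cpt1a (ENSMUSG00000024900.6), the liver form of the entry enzyme that is also made in heart, had 48.5, 37.6, 41.8 and 44.6 CPM in NR replicates 1 to 4. S-PRT replicates 1 to 4 had 19.2, 28.1, 27.3 and 29.2 CPM. The 3 F-PRT libraries had 20.5, 20.6 and 20.6 CPM. All 7 irradiated libraries lay below the lowest NR library, and the 3 F-PRT libraries were almost equal. Cpt1a fell after S-PRT (-0.73 ± 0.12, edgeR adjusted p = 0.0196) and after F-PRT (-1.07 ± 0.14, adjusted p = 0.00242).

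Same-numbered S-PRT and NR libraries differed in Cpt1a by -1.34, -0.42, -0.61 and -0.61 log2 units in pairs 1 to 4. Every S-PRT library lay below every NR library, so any pairing would give only negative values. With the replicate block the adjusted p of Cpt1a was 0.0101 after S-PRT and 0.0334 after F-PRT. Fits on part of the same libraries, chosen after the values were seen, are no independent test. In them Cpt1a was lower in replicates 1 and 2 alone (-0.88, edgeR adjusted p = 0.00883). In replicates 3 and 4 alone it had -0.61 (edgeR adjusted p = 0.00307). It is a long transcript, and with the length trend removed the change was -0.65 after S-PRT (adjusted p = 0.04) and -0.86 after F-PRT (adjusted p = 0.00792). The S-PRT call was lost without NR replicate 1, 3 or 4 or S-PRT replicate 3 (adjusted p = 0.0682, 0.0576, 0.0815 and 0.0625). Between the modes the difference was -0.34, with a 95% interval of -0.63 to -0.05 and an adjusted p of 0.262.

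Mlycd (ENSMUSG00000074064.7), the decarboxylase that clears malonyl-CoA and so releases CPT1, had 112, 102, 107 and 106 CPM in NR (replicates 1 to 4 in order) against 97.2, 97.5, 72.1 and 73.5 in S-PRT. After F-PRT, replicates 2 to 4 had 82.7, 96.7 and 125 CPM, on both sides of the NR range. S-PRT libraries were all below NR (-0.33 ± 0.13, adjusted p = 0.215, or 0.0396 with the block). Acacb, the carboxylase that makes malonyl-CoA at the mitochondrial surface, had -0.09 ± 0.12 and -0.29 ± 0.14. It is the longest member, and with the length trend removed its F-PRT value was 0.06.

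The remaining shuttle genes were close to NR. Cpt1b, the muscle form of the entry enzyme, had log2 fold changes of -0.14 ± 0.08 and -0.03 ± 0.09 after S-PRT and F-PRT, with 95% intervals of -0.32 to 0.04 and -0.22 to 0.17. The carnitine carrier Slc25a20 had -0.14 ± 0.12 and 0.02 ± 0.13, and Cpt2, which rebuilds acyl-CoA inside the mitochondrion, had -0.05 ± 0.09 and -0.01 ± 0.10.

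Mitochondrial beta-oxidation proper begins with the acyl-CoA dehydrogenases, followed by hydration, a further oxidation and cleavage, with isomerases and a reductase for unsaturated chains. Of the 12 members 11 were negative after S-PRT, at -0.33 to 0.01 with a median of -0.18. After F-PRT 7 were negative, at -0.29 to 0.20 with a median of -0.07. By edgeR 0 of 12 were called after either mode. Hadha had an unadjusted p under 0.05 in both, and DESeq2 called it after F-PRT. With the block Hadha and Hadh were lower after S-PRT.

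Hadha (ENSMUSG00000025745.13) encodes the alpha subunit of the trifunctional protein, which handles long chains at the inner membrane. It had 1219, 1271, 1216 and 1155 CPM in NR (replicates 1 to 4 in order) against 1045, 1072, 828 and 931 CPM in S-PRT. In F-PRT replicates 2 to 4 the values were 952, 1148 and 871 CPM. All irradiated libraries were below all NR libraries, with F-PRT replicate 3 just under the lowest. The change was -0.33 ± 0.11 after S-PRT (adjusted p = 0.154) and -0.29 ± 0.12 after F-PRT (adjusted p = 0.104, or -0.41 and 0.0339 without F-PRT replicate 3). With the block the S-PRT value was called (adjusted p = 0.0269), but not with the block and the length trend removed (adjusted p = 0.0634).

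Hadhb encodes the beta subunit, and its start lies 273 bases from that of Hadha. It had 1469, 1497, 1518 and 1424 CPM in NR (replicates 1 to 4 in order) against 1354, 1420, 1026 and 1135 in S-PRT. The 3 F-PRT libraries had 1123, 1384 and 1553 CPM. All S-PRT libraries were below NR, replicate 2 by a very small margin, and F-PRT replicate 4 was above all of NR. F-PRT replicate 4 was thus the highest library for Hadhb and among the lowest for Hadha. Hadha is the longer transcript, and part of the Hadhb reads was shared with other genes in all 11 libraries.

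Hadh, the short-chain hydroxyacyl-CoA dehydrogenase, had 482, 470, 437 and 423 CPM in NR (replicates 1 to 4 in order) against 424, 428, 300 and 335 in S-PRT. After F-PRT, replicates 2 to 4 had 326, 413 and 462 CPM. S-PRT replicates 1 and 2 lay at the lower edge of NR, and replicates 3 and 4 far below it. The S-PRT change was -0.29 ± 0.13 (adjusted p = 0.281), or -0.30 ± 0.08 with the block (adjusted p = 0.0432). F-PRT gave -0.18 ± 0.15 (adjusted p = 0.397).

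Among the dehydrogenases, Acadm for medium chains had log2 fold changes of -0.24 ± 0.13 and -0.11 ± 0.14 after S-PRT and F-PRT. Acadvl and Acadl, for very long and long chains, had -0.17 ± 0.11 and -0.11 ± 0.10 after S-PRT, and Acads, for short chains, -0.09 ± 0.10. The thiolase Acaa2 had -0.26 ± 0.14 after S-PRT. The hydratase Echs1 stood apart as the positive member of the step after S-PRT, at 0.01 ± 0.09, and the isomerases Eci1 and Eci2 and the reductase Decr1 had -0.10, -0.04 and -0.18. None of these passed the test.

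The electron transfer flavoprotein collects electrons from the acyl-CoA dehydrogenases. Etfa and Etfb encode its subunits and Etfdh the enzyme that hands the electrons to ubiquinone. After S-PRT the 3 had log2 fold changes of -0.13 ± 0.11, -0.03 ± 0.15 and -0.17 ± 0.11 (adjusted p = 0.594, 0.934 and 0.458). After F-PRT they had 0.01 ± 0.12, 0.36 ± 0.16 and -0.22 ± 0.12 (adjusted p = 0.973, 0.119 and 0.207). Etfb is the shortest member: it had 509, 580 and 814 CPM in F-PRT replicates 2 to 4 against 458 to 518 in NR, and its F-PRT value became -0.06 once the length trend was removed. In F-PRT replicate 4, the library with the most negative length correlation, Etfb was far above every other library.

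Peroxisomes shorten very long chains before the mitochondria take over. Ehhadh, the peroxisomal bifunctional enzyme, had 14.9, 9.79, 12.6 and 16.2 CPM in NR (replicates 1 to 4 in order) against 8.74, 12.6, 6.89 and 7.15 in S-PRT. In F-PRT replicates 2 to 4 the values were 6.42, 8.84 and 10.4 CPM. The groups overlapped, as S-PRT replicate 2 and F-PRT replicate 4 were above NR replicate 2. The log2 fold changes were -0.61 ± 0.21 after S-PRT (adjusted p = 0.159) and -0.64 ± 0.23 after F-PRT (adjusted p = 0.0702). Hsd17b4, the second bifunctional enzyme, had -0.17 ± 0.08 and -0.19 ± 0.09 (adjusted p = 0.32 and 0.15), and the thiolase Acaa1a had 0.07 ± 0.11 and 0.29 ± 0.12 (adjusted p = 0.797 and 0.102).

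Pdk4 and Ucp3 had the most negative log2 fold changes after S-PRT and were also the most variable members between libraries. Pdk4 encodes the kinase that shuts off pyruvate dehydrogenase and so favours fat over glucose. It had 470, 239, 486 and 473 CPM in NR replicates 1 to 4. S-PRT replicates 1 to 4 had 156, 381, 220 and 128 CPM, and F-PRT replicates 2 to 4 had 97, 77.1 and 386 CPM. Most irradiated libraries were far below NR, but S-PRT replicate 2 and F-PRT replicate 4 lay above NR replicate 2. The changes were -0.92 ± 0.47 after S-PRT (adjusted p = 0.329) and -1.16 ± 0.52 after F-PRT (adjusted p = 0.132), with a 95% interval of -2.29 to -0.02 for the latter. Without F-PRT replicate 4 the F-PRT change was -2.26 and was called (adjusted p = 0.0154).

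Ucp3, a mitochondrial carrier of muscle that follows fatty acid supply, had 97.9, 55.4, 83.6 and 91.9 CPM in NR replicates 1 to 4. S-PRT replicates 1 to 4 had 36.6, 69, 42.3 and 30.3 CPM, and F-PRT replicates 2 to 4 had 25.9, 28.9 and 80 CPM. The same libraries stood out as for Pdk4: NR replicate 2 was the lowest of NR, S-PRT replicate 2 the highest of S-PRT and F-PRT replicate 4 the highest of F-PRT. The changes were -0.89 ± 0.34 (adjusted p = 0.192) and -0.86 ± 0.38 (adjusted p = 0.118), the latter becoming -1.59 without F-PRT replicate 4 (adjusted p = 0.0162). Between the libraries numbered 2, Pdk4 and Ucp3 were higher in S-PRT than in NR, by 0.68 and 0.32 log2 units. For numbers 1, 3 and 4 both were lower, at -1.89 to -0.98, but the values do not bear out a pairing by number.

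The pairs of same-numbered libraries differed in how far the members lay from NR. The median difference over members was -0.11, 0.03, -0.39 and -0.25 log2 CPM in pairs 1 to 4, and 24, 13, 35 and 32 members were lower. In 4 of 4 pairs 12 members were lower and 0 were higher. The values do not bear out a pairing by number. These counts were also not made over all genes, and members share their libraries, so they are a description. Fitted on replicates 3 and 4 alone, a choice made after seeing the data, all 35 members were negative with a median of -0.33. In that fit 18 members were lower, against 2.97% of all genes, and 0 were higher, against 6.08%. All 35 members already lay below their NR mean in S-PRT replicates 3 and 4 when the choice was made. Low values in this fit were thus to be expected and add no support. Members called lower there but not with all libraries included Plin5 (-0.74), Pdk4 (-1.47), Ucp3 (-1.28) and Ehhadh (-1.04).

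Fitted on replicates 1 and 2 alone, 23 of 35 members were negative with a median of -0.06. In that fit 2 members were lower, against 5.25% of all genes, namely Cpt1a and Slc27a1 (-0.45, adjusted p = 0.00918). The single member higher was Fabp3 (0.27, adjusted p = 0.042), against 6.26% of all genes. Whether the shift differs between these pairs of libraries was not tested, and the labels say nothing of what the numbers stand for.

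**Figure D4:**
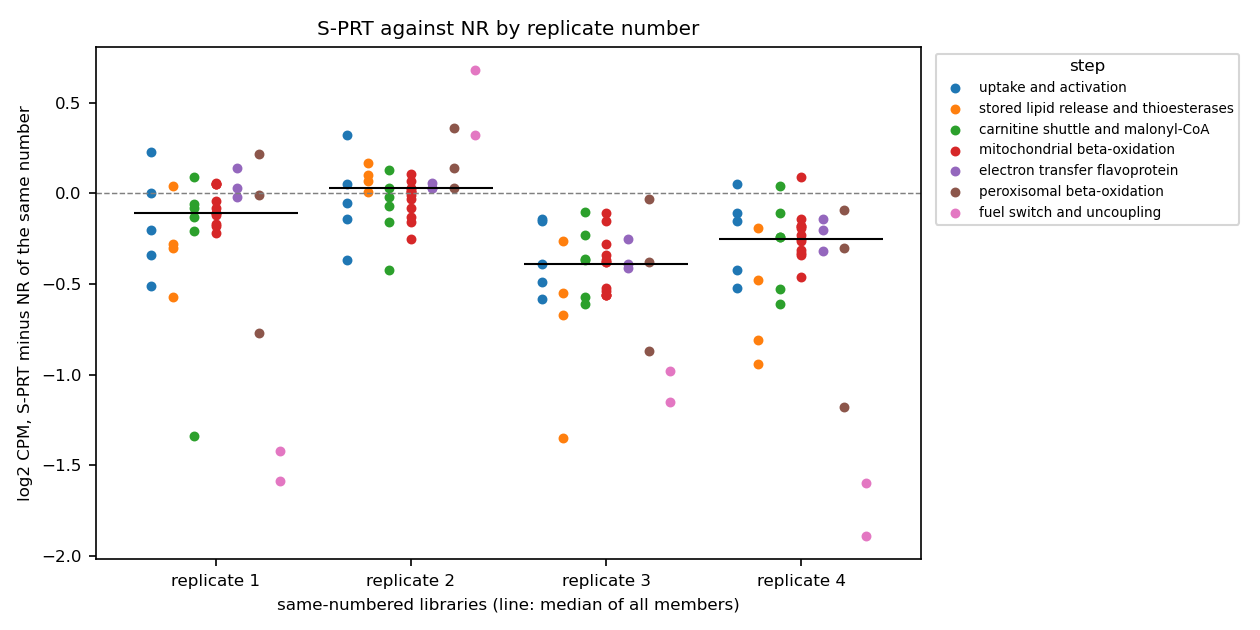
Log2 CPM of S-PRT minus that of the NR library with the same number, 1 point per member, coloured by step, with a line at the median. The medians are -0.11, 0.03, -0.39 and -0.25, and the points of replicates 3 and 4 lie almost wholly below 0. A pairing by number is not borne out by the values.

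Gene length moved with the groups and with the members' values. Over the 35 members, the Spearman correlation of a gene's level, relative to its mean over libraries, with its length was 0.39 to 0.53 in NR, -0.53 to 0.31 in S-PRT and -0.58 to -0.37 in F-PRT. These values run across genes, which share their library and are no replicates, and are given as a description. With the trend over all genes removed, Cpt1a, Cd36 and Acsl1 were still lower after F-PRT (-0.86, -0.55 and -0.48, adjusted p = 0.00792, 0.0345 and 0.0476). The median member then lay at -0.22 after S-PRT and -0.18 after F-PRT. The positive values of Etfb, Fabp3, Eci1 and Echs1 after F-PRT became -0.06, -0.13, -0.13 and -0.05. Lpl, by contrast, went from 0.17 to 0.36 (adjusted p = 0.122), Acaa1a from 0.29 to 0.12, and Acacb from -0.29 to 0.06.

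**Figure D5:**
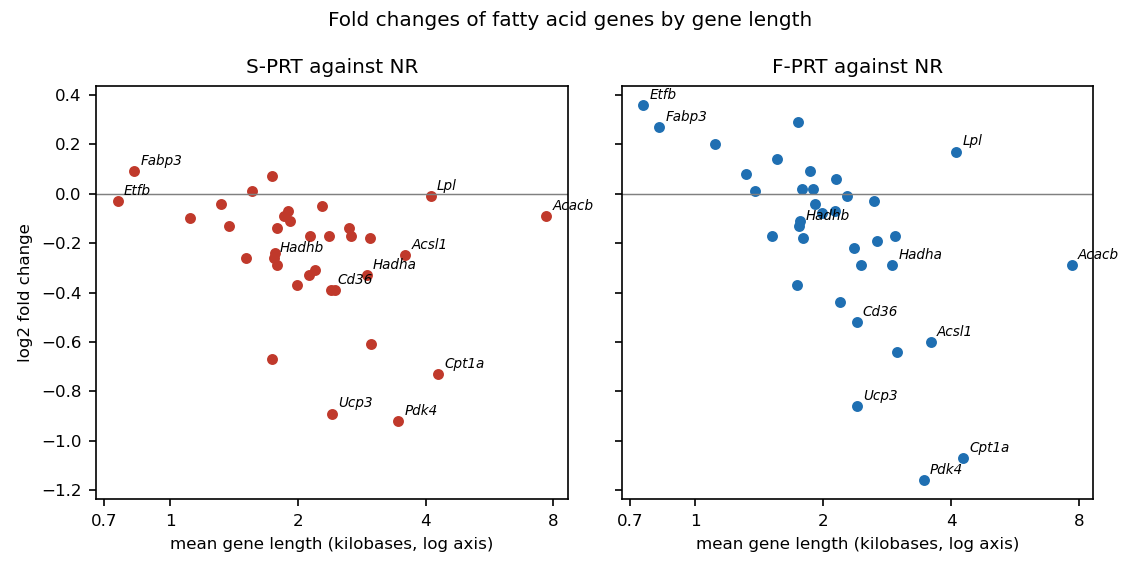
Log2 fold change against NR by mean gene length in kilobases on a log axis, 1 point per member, for S-PRT on the left and F-PRT on the right. The shortest members, Etfb and Fabp3, are near or above 0 and Cpt1a, Pdk4 and Acsl1, among the longer ones, lie below, most clearly for F-PRT, and the long Lpl is near 0 or above.

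Other genes of the pathway were taken from lists by function. After S-PRT 0 of 13 tested further uptake and activation genes fell and 1 rose, the transporter Slc27a3 (0.379 ± 0.172 CPM in NR, 1.2 ± 0.43 in S-PRT, adjusted p = 0.0371, or 0.0622 with the length trend removed). Of 15 storage and thioesterase genes 1 fell, Gpam, the first enzyme of glycerolipid synthesis (-0.48 ± 0.10, adjusted p = 0.0355, or -0.36 and 0.197 with the length trend removed). By edgeR and by DESeq2 0 of 22 other oxidation and ketone genes were called after S-PRT, although 4 had an unadjusted p under 0.05. By both tools 0 of 14 regulators of the PPAR, ERR and PGC-1 families were called after S-PRT, with 0 at an unadjusted p under 0.05.

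After F-PRT 5 of the 14 regulators fell and 1 rose. Ppara, the nuclear receptor that drives fatty acid oxidation genes in heart, fell from 18.2 ± 1.94 CPM in NR to 6.62 ± 4.48 (-1.51 ± 0.34, adjusted p = 0.0135, and 0.0386 with the length trend removed). The S-PRT level was 12.5 ± 1.42 CPM (-0.54 ± 0.29, adjusted p = 0.347, or 0.0143 with the block). Nrip1, a corepressor, fell by 0.58 log2 units (adjusted p = 0.0106) and was not called with the length trend removed (-0.23, adjusted p = 0.225). The receptor partner Rxrb rose (0.29 ± 0.07, adjusted p = 0.0193, or 0.0477 with the length trend removed). The other 3 that fell, named after their values were seen, were Esrrg, Ppargc1a and Lpin1. None of these 3 was called with the length trend removed (-0.23, -0.24 and -0.08, adjusted p = 0.24, 0.297 and 0.571).

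Of the 13 uptake genes 2 fell after F-PRT and Slc27a3 rose (2.04 ± 0.36, adjusted p = 0.0078, or 0.0214 with the length trend removed). Those that fell were Acsl4, another acyl-CoA synthetase (-0.44 ± 0.10, adjusted p = 0.0161), and the lipoprotein receptor Vldlr (-0.46 ± 0.14, adjusted p = 0.0324). Neither was called with the length trend removed (adjusted p = 0.404 and 0.454). Of the 15 storage genes 3 fell and 1, Acot8, rose, with Plin4, a droplet coat protein of muscle and fat, at -0.64 ± 0.10 (adjusted p = 0.00456), Gpam at -0.67 ± 0.10 (adjusted p = 0.00508) and the thioesterase Acot11 at -0.47 ± 0.14 (adjusted p = 0.0346). With the length trend removed none of these 4 was called: Plin4 had -0.33, Gpam -0.34, Acot11 -0.19 and Acot8 0.16 (adjusted p = 0.063, 0.167, 0.404 and 0.484). Of the 22 oxidation and ketone genes 2 fell and 1 rose, with Abcd2, a transporter of the peroxisome, at -0.75 ± 0.18 (adjusted p = 0.0163, or -0.44 and 0.24 with the length trend removed).

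The 10 endothelial markers had a median of -0.39 after S-PRT and -0.37 after F-PRT, with 8 and 7 of them negative. After S-PRT the receptors Tek (-0.97, adjusted p = 0.0266) and Flt1 (-0.93, adjusted p = 0.0319) fell, 5 markers were lower with the block, and neither receptor was called with the length trend removed (adjusted p = 0.081 and 0.122). After F-PRT Tek (-1.19, adjusted p = 0.00545) and Flt1 (-0.82, adjusted p = 0.0166) fell, while Egfl7, a protein secreted by endothelial cells, rose (0.73 ± 0.16, adjusted p = 0.0126). Of these Tek alone was called with the length trend removed (-0.95, adjusted p = 0.0392), against -0.45 for Flt1 and 0.35 for Egfl7 (adjusted p = 0.302 and 0.183). Their part in the lower Cd36 level was not tested. Muscle markers had medians of 0.02 and 0.27, with Ryr2 lower (-0.86 ± 0.22, adjusted p = 0.0216) and Myl3 higher (0.47 ± 0.14, adjusted p = 0.0359) after F-PRT. With the length trend removed the F-PRT median was -0.06 and neither was called (-0.46 and 0.10, adjusted p = 0.109 and 0.59). Macrophage and leukocyte markers had a median of 0.81 after S-PRT, with 0 of 10 called by edgeR, 9 at an unadjusted p under 0.05, 6 called by DESeq2 and 9 higher with the block. The median was 0.63 after F-PRT, with C1qa and C1qb higher, neither of them called with the length trend removed (adjusted p = 0.29 and 0.278). The 8 fibroblast markers had a median of 0.01 after S-PRT, with 0 called by edgeR, 2 at an unadjusted p under 0.05 and 1 called by DESeq2, and 1 lower and 1 higher with the block. After F-PRT their median was -0.43, 7 of 8 were negative, and the receptor Pdgfra fell (-1.34 ± 0.25, adjusted p = 0.00864, or -0.98 and 0.0741 with the length trend removed). The part of these cell types in the lower median of the members was not tested.

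The scale also moved the median of all genes. On log2 TPM all 35 members were negative after S-PRT with a median of -0.38. The median of all genes there was -0.17 with a pseudocount of 1 and -0.20 with 0.1. On that scale limma called 0 members in any comparison, and the F-PRT values of Cpt1a, Cd36 and Acsl1 had adjusted p of 0.0764 to 0.106. Scaled by library size alone, Cpt1a was not called after S-PRT (adjusted p = 0.0761), and the F-PRT calls of Cd36 and Acsl1 were lost (adjusted p = 0.125 and 0.0516).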

How the data were processed

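Bulk RNA-seq of 11 libraries was analysed, grouped by the sample titles. Per the labels' protocols, libraries were made from total RNA with poly(A) selection and a directional kit. The strand setting used in counting is not given in the sources used. The submitters' processing notes name FastQC, cutadapt, STAR, RSEM and edgeR without versions, and both GRCm39 and mm10 as builds. Per the file headers, the deposited values are expected counts, which share ambiguous reads between genes and need not be whole, and TPM, which are scaled by effective length within a library. Per the file headers, gene lengths are averages over isoforms.

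The expected counts were rounded, and filterByExpr (count of at least 10, total of at least 15) kept 14556 genes. After TMM scaling, edgeR 4.0.16 under R 4.3.3 fitted all 11 libraries by quasi-likelihood (8 residual degrees of freedom) with Benjamini-Hochberg adjustment over all genes at 0.05. The length trend was a lowess curve per library (span 0.3) removed as an offset. Alternatives used DESeq2 1.42.0, limma 3.58.1 on log2 TPM (pseudocount 1 or 0.1, mean TPM of at least 1), 1 surrogate variable from sva 3.50.0, a fit without the filter, fits of 2 groups and fits without each library. The edgeR fit was also run on simulated counts. These held no gene length trend and no replicate sets, so that run cannot speak to either.

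The members, lists and tests were chosen with earlier results of these data known, and the fits on replicates 1 and 2 or 3 and 4 after seeing these values. Full statistics are given for members called in any comparison with or without the replicate block, and in steps with none for up to 2 members with the smallest p. From the other lists up to 3 called genes are named, or the 1 with the smallest p. Some genes that this rule selects are left out of the text. Replicate numbers come from the titles. Deviations from group means of same-numbered NR and S-PRT libraries correlated at 0.265, 0.282, 0.363 and 0.184 over 11107 genes. For S-PRT replicates 1 to 4 the other NR library of the same set gave 0.443, 0.167, 0.354 and 0.369. The values thus bear out sets of replicates 1 and 2 and of 3 and 4, and not a pairing by number. The numbers were used as a block all the same, and results with the block rest on that choice. F-PRT libraries were not paired by number.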

Additional observations from a re-analysis of the deposited data

Results flagged for a closer look

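In 3 of the 70 groups of 4 libraries examined (35 members in NR and in S-PRT), the lowest library lay far from the other 3 by Dixon's test, and chance gives about 1 in 20 such groups. Pdk4 had 239 CPM in NR replicate 2 against 470 to 486 in the other NR libraries. Plin5 had 94.0 CPM in NR replicate 2 against 108 to 111. Etfa had 551 CPM in NR replicate 4 against 593 to 596. The F-PRT group has 3 libraries and was not examined in this way.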

How the results depend on the processing

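In S-PRT against NR, where 61 genes were lower, 127 higher and 1 member called, other settings gave 14 genes and 0 members with library size alone (3 lower and 11 higher), 605 and 2 without the count filter, 44 genes with the length trend removed, 429 genes with 1 surrogate variable, and 557 and 2 with only the 2 groups fitted. The replicate block gave 1371 genes and 7 members, and the block with the length trend removed 847 and 8. Replicates 1 and 2 alone gave 1588 and 3, replicates 3 and 4 alone 1338 and 18, and DESeq2 650 and 3. Limma on log2 TPM gave 1 or 2 genes and 0 members, with a median member of -0.38 against -0.17 or -0.20 for all genes. Leaving out 1 library gave 26 to 191 genes, 0 to 1 members and a median of -0.24 to -0.13.

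In F-PRT against NR, with 1262 genes lower, 1579 higher and 3 members called, library size alone gave 134 genes and 1 member, the length trend removed 497 genes, no filter 7 members, DESeq2 6 members, and 1 surrogate variable 6 members (4 lower, with Etfb at 0.44 and Acaa1a at 0.34 higher). Limma on log2 TPM gave 49 or 48 genes and 0 members. Here too the numbers do not pair the libraries, as same-numbered ones correlated at -0.446 to 0.233. The replicate block gave 29 genes and 1 member, or 9 and 0 with the length trend removed. Leaving out 1 library gave 1382 to 3784 genes, 2 to 6 members and a median of -0.21 to 0.00. In F-PRT against S-PRT, with 0 called, DESeq2 size factors gave 3 genes, leaving out mitochondrially encoded genes 3, no filter 71, 1 surrogate variable 6, DESeq2 167 and limma 6 or 2, with 0 members in each. Library size alone gave a median of 0.30, against 0.19 for all genes. Leaving out 1 library gave 0 to 103 genes, the latter without F-PRT replicate 3, 0 members and a median of -0.00 to 0.21.

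Signs turned for some members. After S-PRT these included Acaa1a (-0.08 with library size alone, -0.06 in replicates 3 and 4, -0.14 with both TPM settings), Etfb (0.08 with 1 surrogate variable, 0.10 in replicates 1 and 2, -0.12 to 0.03 without 1 library), Etfa (0.02) and Hsd17b4 (0.00), the last 2 in replicates 1 and 2. After F-PRT the members that turned with the length trend removed included Fabp3 (-0.13 from 0.27), Acacb (0.06 from -0.29), Eci1 (-0.13 from 0.20) and Etfb (-0.06 from 0.36, also with the block). Etfa had -0.23 with the length trend removed, also with the block, -0.02 with DESeq2, with its size factors and without mitochondrially encoded genes, -0.01 with 2 groups, -0.00 with no filter, the block or TPM, and -0.05 to 0.08 without 1 library. Mlycd had -0.25 to 0.06 without 1 library. Between the modes Cd36 had 0.07 with library size alone and Hadha -0.01 with 1 surrogate variable. Without 1 library the ranges there were -0.16 to 0.54 for Acot1, -0.03 to 0.23 for Hadh, -0.10 to 0.12 for Hadha and -0.00 to 0.21 for Slc27a1. The cause of these shifts was not tested. With 3 or 4 libraries a group, differences of the size of most beta-oxidation genes here could not be told from the spread.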
